A study of Homo sapiens with 2 samples.

Results

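The BAG family consists of 6 genes, BAG1 to BAG6, whose proteins carry a BAG domain. The members were taken by gene symbol and not by measured values, and all 6 were matched among the 57736 genes listed in the tables. Poly(A)+ RNA was sequenced from HEK293T cells, which derive from human embryonic kidney and express the SV40 large T antigen. Both libraries, replicate 1 and replicate 2, belong to the same heat shock group: 20 min at 43 °C were followed by 6 h of recovery at 37 °C, and the cells of each replicate were lysed apart. Untreated cells are not analysed here, so the values give the levels of the BAG genes after recovery and the spread between the libraries, and no change with heat shock was measured. Since the libraries are of 1 group, any p-value given compares these libraries and not conditions.

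BAG proteins are known as nucleotide exchange factors of HSP70, although BAG6 is best known for other work. HSP70 holds an unfolded protein tightly while ADP is bound. The canonical BAG domain binds the ATPase domain of HSP70 and promotes the release of ADP, so that ATP can bind and the client is let go. Outside the BAG domain the members differ, and these other regions link HSP70 to the proteasome, to autophagy, to death receptors or to mitochondrial quality control.

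Replicate 1 held 22529828 expected counts and replicate 2 held 26890199, so that a limit of 3 counts corresponded to 0.133 and 0.112 CPM, counts scaled to the library total. This limit covers counting error only. All 6 markers matched for HEK293T cells (NEFM, UCHL1, INA, KRT8, KRT18 and PAX2) had at least 1 TPM (a level per transcript length) in both libraries. Of 10 markers of fibroblasts, leukocytes, erythroid cells and mature tubules, 2 passed the same limit, namely COL1A1 at 24.1 and 20.9 TPM and CD68 at 1.47 TPM in each library. The other fibroblast markers did not pass it, with COL1A2 at 0.0 and 0.01 TPM and LUM at 0.36 and 1.12 TPM. The summed level of these 10 markers was 26.2 TPM in replicate 1 and 23.6 TPM in replicate 2. PTPRC, AQP2 and UMOD were listed at 0. Whether any such cells were present in this cultured line, or had a part in the levels of the BAG genes, was not tested. In such bulk samples, fewer cells of a type and less RNA per cell cannot be told apart.

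BAG3 is a known target of the heat shock factor HSF1, and the cells had been heated, so the sequences before the starts of the BAG genes were searched for heat shock elements. RefSeq promoter windows were found for 5 of the 6 members, BAG1, BAG2, BAG3, BAG5 and BAG6, and the 250 bases upstream of each start were read on both strands. The windows are from the RefSeq table of GRCh38.p14, and each was placed by an exact match in GRCh37. A heat shock element of 3 units, GAA and TTC in turn with any 2 bases between them, was found in 0 of these windows. It occurs in 0.441% of 35116 windows of the same length in the table. Elements with a mismatch, and sequence outside these 250 bases, were not searched. The shorter inverted pair GAANNTTC, which lies within the longer element, was found for BAG2 only, and it occurs in 5.78% of all windows. The pair TTCNNGAA and the box CCAAT, present in 6.62% and 32.0% of all windows, were found in 0 of the members' windows. The windows of 2 members are shown, BAG2 because it holds this pair and BAG3 because of its known response to heat, 5′ to 3′ on the strand of the gene. Capitals mark GAANNTTC, the AP-1 element TGACTCA and the GC box GGGCGG, on either strand.
BAG2 (chr6:57036874-57037123, + strand): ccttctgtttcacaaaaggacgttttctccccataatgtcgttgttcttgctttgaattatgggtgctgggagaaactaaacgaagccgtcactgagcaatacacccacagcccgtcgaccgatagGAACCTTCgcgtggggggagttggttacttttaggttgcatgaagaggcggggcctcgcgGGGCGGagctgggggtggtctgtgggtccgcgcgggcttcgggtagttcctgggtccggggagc
BAG3 (chr10:121410642-121410891, + strand): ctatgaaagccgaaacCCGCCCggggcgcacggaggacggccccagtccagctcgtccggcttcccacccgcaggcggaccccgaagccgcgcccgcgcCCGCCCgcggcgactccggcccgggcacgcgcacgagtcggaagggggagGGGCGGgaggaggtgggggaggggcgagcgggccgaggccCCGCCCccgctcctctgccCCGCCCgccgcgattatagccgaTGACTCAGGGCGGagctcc

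The BAG2 window, with a GC content of 57.6%, holds the heat shock pair from base 127 and 1 GC box, and all of it lies in an exon of ZNF451-AS1, a lncRNA gene on the opposite strand. The BAG3 window, with a GC content of 78.0%, holds 6 GC boxes and 1 AP-1 element from base 232. The BAG1 window holds 4 GC boxes, the windows of the 2 starts of BAG5 hold 4 and 1, and 0 were found for BAG6. A GC box is present in 42.6% and TGACTCA in 4.2% of all windows. These matches describe letters only, and no binding was measured.

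All 6 BAG genes were expressed after recovery, with more than 10 TPM in both libraries. Their levels summed to 568.1 TPM in replicate 1 and 534.9 TPM in replicate 2, or 551.5 ± 23.4 TPM (SD, n = 2). BAG6 alone held 65.3% of this sum in replicate 1 and 58.0% in replicate 2. Without BAG6, the other members summed to 211.0 ± 19.7 TPM.

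**Figure D1:**
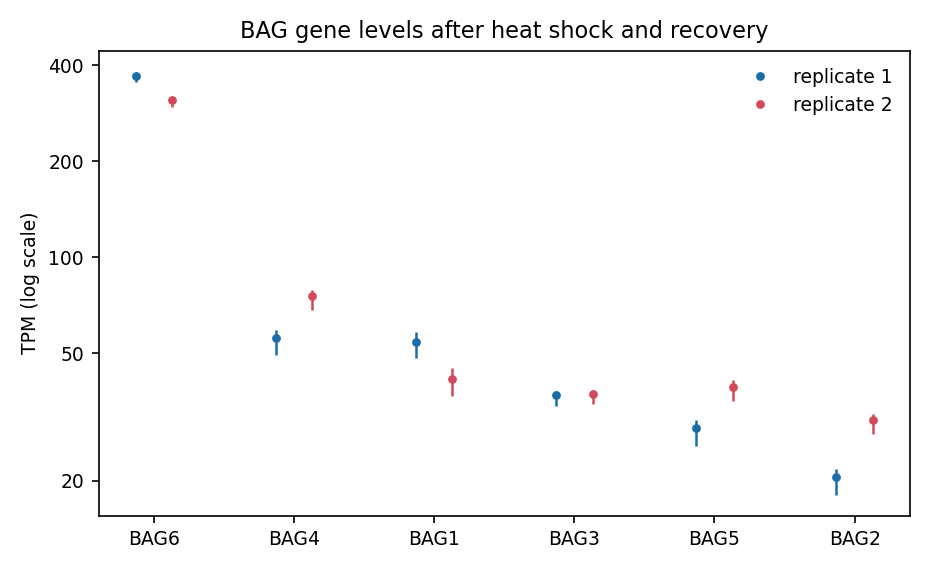
Levels of the 6 BAG genes in TPM on a log scale, with 1 point for each library and a line for its 95% credibility bounds. BAG6 is at 371.0 and 310.0 TPM, far above the others, which range from 20.5 to 75.5 TPM.

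By mean TPM the members were ordered BAG6, BAG4, BAG1, BAG3, BAG5 and BAG2. A pair of neighbours was called separated when both libraries of the upper gene were above both libraries of the lower one. This held for 3 of the 5 neighbouring pairs. BAG6 was 5.18 times as high as BAG4, BAG4 1.37 times as high as BAG1, and BAG1 1.29 times as high as BAG3. In replicate 2, however, the credibility bounds of BAG1 and BAG3 overlapped. The last pairs did not separate. The mean of BAG3 was 1.09 times that of BAG5, and their order changed between the libraries. The mean of BAG5 was 1.33 times that of BAG2, but BAG5 in replicate 1, at 29.2 TPM, was below BAG2 in replicate 2, at 31.0 TPM. Within each library, however, BAG5 was the higher, 1.43 times in replicate 1 and 1.27 times in replicate 2. Their credibility bounds did not overlap within either library. With 2 libraries a difference between genes cannot reach a p of 0.05 by an exact two-sided permutation test. Its smallest value is 0.333 when 2 values are set against 2 without pairing by library.

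Differences between the libraries were tested on the reads of each gene by a binomial test, exact and two-sided, and p-values were adjusted by the Benjamini-Hochberg method over the 19714 genes whose counts summed to 10 or more. All 6 members passed the threshold of 0.05, against 43.1% of all genes tested. With TMM factors over all listed genes, the setting used first, 5 members passed, against 42.2% of all genes. BAG2, BAG4 and BAG5 were higher in replicate 2, the direction of 20.9% of all genes, and BAG1, BAG3 and BAG6 were higher in replicate 1, the direction of 22.2%. The members are deeply counted, and among the 6347 genes with at least the 1503 summed counts of the lowest member, BAG1, the threshold was passed by 76.2%. The 95% TPM credibility bounds, which the quantifier gives for counting error and for the sharing of reads, lay apart between the libraries for 5 members, all but BAG3. Such separation was found for 22.2% of all genes tested and for 44.7% of the genes at that depth.

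The log2 ratios of counts, replicate 2 over replicate 1, ranged from -0.42 to 0.52 among the members, with a median of 0.025. The median over all genes tested was -0.001. Because the ratios of all genes followed the GC content of their transcripts, the ratios were also taken after removal of this trend. Then 4 of the 6 members passed the threshold (BAG1, BAG2, BAG4 and BAG6), against 31.2% of 19048 genes with a GC value. That share is over genes of all depths tested, and none was taken at the depth of the members. The median ratio was -0.15 for the members and -0.06 for all genes. The edgeR exact test with the dispersion estimated from these libraries, a biological coefficient of variation of 0.2005, passed 0 members and 0.781% of all genes, and 0 members had an unadjusted p under 0.05 in it. This dispersion came from the difference between the same libraries, so few genes could pass by construction.

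**Figure D2:**
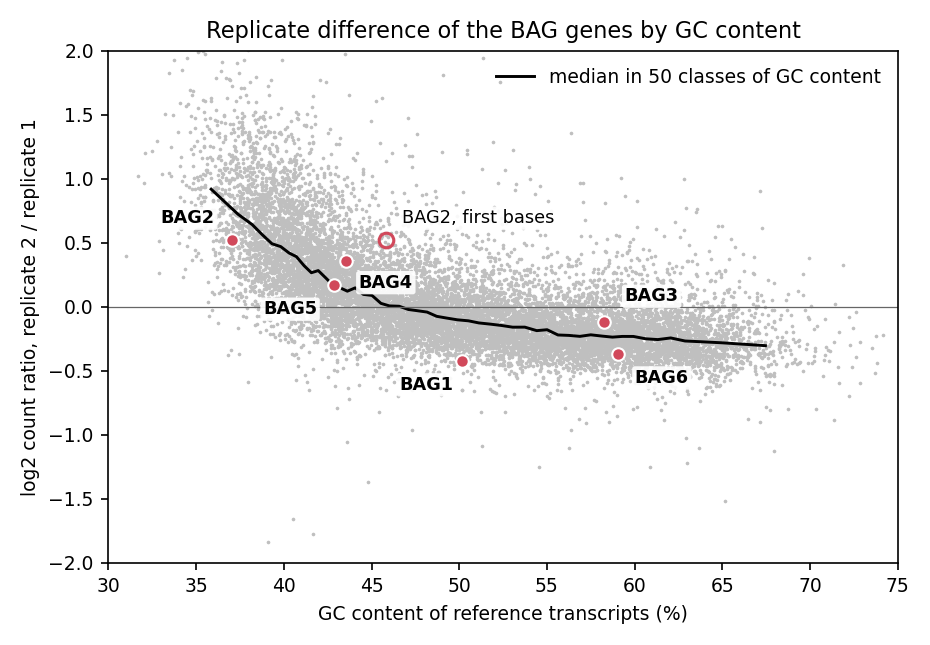
Log2 ratio of counts, replicate 2 over replicate 1, against the GC content of reference transcripts, for genes counted 100 times or more in all (grey, genes beyond the axes not drawn), with the median in 50 classes as a line and the BAG genes in red. BAG1 and BAG6 lie below the line and BAG3 and BAG4 above it, and BAG5 lies near it. BAG2 lies below the line at 37.0% GC but above it when GC content is taken over its first 1731 bases (open circle). The line uses the GC content of whole reference transcripts, an unlike measure to that of the open circle.

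BAG6, also called BAT3 or Scythe, captures hydrophobic and tail-anchored proteins released from ribosomes and passes them to insertion or to degradation. Its BAG-like domain is known for binding UBL4A rather than for acting on HSP70. Its gene (ENSG00000204463) is at chr6:31606805-31620482 of GRCh37, on the minus strand. BAG6 was at 371.0 TPM in replicate 1 and 310.0 TPM in replicate 2, or 340.5 ± 43.1 TPM (SD, n = 2), above 97.7% of detected protein-coding genes. The level was higher in replicate 1, where the credibility bounds were 355.1 to 381.1 TPM, against 296.1 to 319.0 in replicate 2. The counts were 12349 and 11815, with a log2 ratio of -0.37 after scaling (exact binomial test, adjusted p = 3.38e-85). With the GC trend removed the ratio was -0.22 (exact binomial test, adjusted p = 1.39e-29). Counting error was about 0.9% of either count, and 27.7% of the 13840 genes whose counts summed to 100 or more had a larger absolute ratio. Among the 889 genes within 1% of its GC content, the median ratio was -0.23, and 17.4% had a ratio below that of BAG6.

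BAG1 was the first member to be described, as a partner of the survival protein BCL2, and it also links HSP70 to the proteasome through a ubiquitin-like domain. The gene (ENSG00000107262) is at chr9:33247818-33264718, on the minus strand. BAG1 was at 54.4 TPM in replicate 1 and 41.6 TPM in replicate 2, a mean of 48.0 ± 9.08 TPM (SD, n = 2). The bounds of 48.4 to 58.2 TPM in replicate 1 lay above those of 36.9 to 45.1 in replicate 2. Its counts of 782 and 721 gave a log2 ratio of -0.42 (exact binomial test, adjusted p = 1.01e-07), which was the most negative of the family. After removal of the GC trend the ratio was -0.40 (exact binomial test, adjusted p = 8.36e-07). Of 909 genes of like GC content, 2.64% had a lower ratio.

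BAG3 recruits HSP70 and small heat shock proteins to selective autophagy and is the member best known to be induced by heat. The gene (ENSG00000151929) is at chr10:121410892-121437331, on the plus strand. BAG3 was at 37.1 TPM in replicate 1 and 37.5 TPM in replicate 2, a mean of 37.3 ± 0.226 TPM (SD, n = 2). The levels were nearly equal, with a coefficient of variation of 0.607%, the smallest among the members, and the bounds of 34.2 to 38.1 and 34.7 to 38.3 TPM overlapped. The counts of 1660 and 1885 gave a log2 ratio of -0.12 (exact binomial test, adjusted p = 0.0337). This call depended on the scaling. With library totals the ratio was -0.07 (exact binomial test, adjusted p = 0.252), and with TMM factors over all listed genes it was -0.10 (exact binomial test, adjusted p = 0.0921). A larger absolute ratio was found in 74.4% of the genes counted 100 times or more. BAG3 was above 69.7% of detected protein-coding genes.

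BAG4, also called SODD, is named for its binding to the death domains of TNF receptors. The gene (ENSG00000156735) is at chr8:38034051-38070819, on the plus strand. BAG4 was at 55.8 TPM in replicate 1 and 75.5 TPM in replicate 2, or 65.7 ± 13.9 TPM (SD, n = 2). It was higher in replicate 2, where the bounds were 68.4 to 78.9 TPM, against 49.5 to 59.1 in replicate 1. In replicate 1 BAG4 was only 1.03 times as high as BAG1, and their bounds overlapped there, whereas in replicate 2 it was 1.82 times as high. The counts of 1291 and 2047 gave a log2 ratio of 0.36 (exact binomial test, adjusted p = 1.08e-11). With the GC trend removed the ratio was 0.15 (exact binomial test, adjusted p = 0.0113). Of 1257 genes of like GC content, 78.2% had a lower ratio.

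BAG5 differs from the others in carrying several BAG domains in a row. The gene (ENSG00000166170) is at chr14:104022882-104028994, on the minus strand. BAG5 was at 29.2 TPM in replicate 1 and 39.3 TPM in replicate 2, or 34.3 ± 7.13 TPM (SD, n = 2). The level was higher in replicate 2, with bounds of 35.5 to 41.2 TPM there and of 25.8 to 31.0 in replicate 1. On counts the difference was smaller. The counts of 1041 and 1446 gave a log2 ratio of 0.17 (exact binomial test, adjusted p = 0.0103), while TPM in replicate 2 was 1.35 times that in replicate 1. TPM divides by transcript length, and the weighted length of BAG5 was shorter in replicate 2. The counts were also scaled by TMM factors, which TPM was not. BAG3, whose length differed by -1.05%, had a TPM ratio of 1.01 and a log2 count ratio of -0.12. The part of each in the BAG5 difference was not tested. With the GC trend removed the count ratio was -0.08 (exact binomial test, adjusted p = 0.344), and 47.4% of 1310 genes of like GC content had a lower ratio.

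BAG2 inhibits CHIP, the ubiquitin ligase that works with HSP70. The gene (ENSG00000112208) is at chr6:57037124-57054631, on the plus strand. BAG2 was the lowest member, at 20.5 TPM in replicate 1 and 31.0 TPM in replicate 2, or 25.7 ± 7.48 TPM (SD, n = 2). Its coefficient of variation of 29.1% was the highest of the family, and its bounds of 18.1 to 21.7 and 28.1 to 32.3 TPM were apart. The counts of 611 and 1084 gave the highest log2 ratio of the family, 0.52 (exact binomial test, adjusted p = 3.05e-12). This direction depended on the GC value. The reference transcript of BAG2 has a GC content of 37.0%, and after removal of the trend the ratio became -0.33 (exact binomial test, adjusted p = 6.18e-05). That transcript is 6651 bases long, although the tables give BAG2 a weighted length near 1.7 kb. Over the first 1731 bases, the length in replicate 2, the GC content was 45.8% and the ratio with the trend removed was 0.425 (exact binomial test, adjusted p = 4.14e-08), a setting chosen after the first result was seen. The same reading of the other members, over the first bases of their longest transcript, moved GC content to 59.7% for BAG1 and 53.0% for BAG4. Their ratios were then -0.27 and 0.43. For BAG1 and BAG6 the transcript so read, of 3820 and 3920 bases, is not among those the authors listed. The longest listed ones of known length have 1977 and 3779 bases. Only the members were read in this way, while the GC content of all other genes in the trend was of whole transcripts. The measures are thus unlike, and how far this moved the ratios was not tested. Which transcript stretch was read in these cells is not known from the tables.

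The mix of transcripts was described by the abundance-weighted length that the tables give for each gene. It was 836 bases in replicate 1 and 883 in replicate 2 for BAG1, a difference of 5.67%. For BAG5 it was 2002 and 1821 bases, or -9.04%. These 2 members differed by more than 5% between the libraries, as did 35.8% of 13840 genes counted 100 times or more. The other members differed by between -1.05% and 2.87%.

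**Figure D3:**
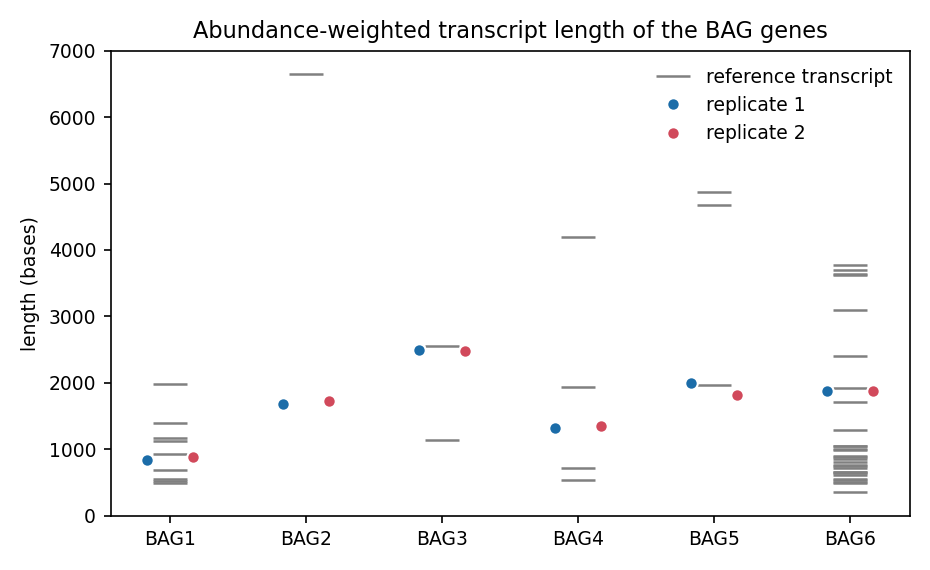
Abundance-weighted transcript length in bases for each BAG gene and library (points), beside the lengths of those reference transcripts that the tables also list (grey bars). BAG3 lies close to its longer transcript of 2561 bases, BAG5 is at 2002 and 1821 bases, and BAG2 is far below its reference transcript.

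The tables list 2 transcripts for BAG3, of 1146 and 2561 bases in the reference annotation, so its length can be read as a mix. The shorter transcript would then hold 4.35% of BAG3 transcripts in replicate 1 and 6.21% in replicate 2. BAG6 has 30 transcripts in the tables and BAG1 has 10, and no mix can be read from their single lengths of about 1.9 kb and 0.9 kb. The annotation used here is of another release. Of 34175 genes with a single transcript, 89.7% had the same length in it, within 1 base, as in the tables.

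Reads of a gene can be confused with those of a gene on the other strand or of a similar gene. Whether strand was used in counting is not stated in the sources at hand. BAG3 shares no exon with another gene, and 0 of its 50-base sequences occur in other reference transcripts. The exons of BAG4 overlap LSM1 over 198 bases, those of BAG6 overlap APOM over 136 bases and those of BAG5 overlap KLC1 over 72 bases, in each case on the opposite strand. On the same strand, BAG4 shares 173 of its 4804 50-base sequences (3.6%) with the gene ENSG00000255107. KLC1, at 74.4 and 79.3 TPM, was higher than BAG5, and LSM1, at 27.2 and 29.5 TPM, was lower than BAG4. For BAG2, 42.7% of the exon bases of its long reference transcript overlap RAB23, at 3.52 and 5.30 TPM. The posterior SD, the uncertainty from sharing reads, was at most 8.14 reads, on 1084 for BAG2 in replicate 2.

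The partners of the BAG proteins were read from 10 lists of 63 genes. Of these, 56 reached 1 TPM in each library. Of 61 genes with enough counts for the test, 40 passed the threshold (65.6%), 13 of them higher in replicate 2 and 27 higher in replicate 1. The share is 43.1% over all genes but rises with depth, to 58.4% of genes counted 100 times or more and 76.2% at the depth of the BAG genes. With the GC trend removed, 37 passed (60.7%, against 31.2% of all genes). The latter share is over genes of all depths tested and was not taken at greater depth. The lists are described by counts, and nothing particular to them was tested.

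**Figure D4:**
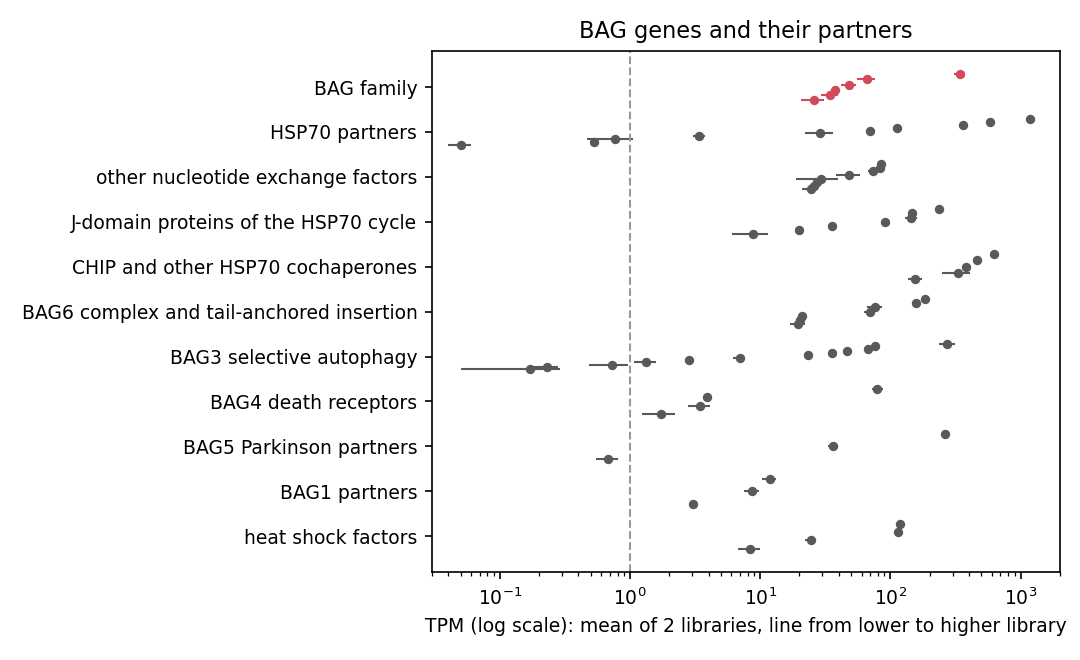
Levels of the BAG genes (red) and of the genes in 10 partner lists (grey) in TPM on a log scale, with a point at the mean of the libraries, a line from the lower to the higher library and a dashed line at 1 TPM. The highest partner is HSPA8 at 1178 TPM and the lowest is HSPA6 at 0.050 TPM.

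The chaperones served by the exchange factors are the HSP70 proteins, and 7 of 10 of their genes were detected. HSPA8, the constitutive cytosolic HSP70, was at 1219.7 and 1137.1 TPM, HSPA9 of mitochondria at 559.0 and 598.4, and the inducible HSPA1B at 345.4 and 376.2. HSPA6, a strictly inducible form, was at 0.040 and 0.060 TPM. Of the 9 tested genes, 3 passed the threshold, HSPA8, HSPA1A and HSPA13, against 43.1% of all genes tested. Of these 3, HSPA1A is uncertain, with a posterior SD of 13.3 reads on 15.5 in replicate 1. The median ratio of the list was -0.003. After removal of the GC trend 7 genes passed, against 31.2% of all genes with a GC value. Added were HSPA1B, HSPA5, HSPA9 and HSPA14, and HSPA13 changed direction, from 0.60 to -0.34. The 7 genes of cytosolic HSP70 (HSPA8, HSPA1A, HSPA1B, HSPA1L, HSPA2, HSPA6 and HSPA14) together had 2.88 times the TPM of the BAG family in replicate 1 and 2.98 times in replicate 2. Without BAG6, these ratios were 8.29 and 7.08.

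The other exchange factors for HSP70 belong to the HSP110, HSPBP1 and GrpE families and to those of the endoplasmic reticulum. All 8 were detected and all 8 passed the threshold, against 58.4% of all genes counted 100 times or more. The share was 76.2% of genes with at least 1503 summed counts, a depth that only HSPBP1 and SIL1 of this list did not reach. They went 4 in each direction, with a median ratio of -0.04. Removal of the GC trend left 4 past the threshold. Among these, HSPH1 changed direction from 0.44 to -0.15 and HSPA4 from 0.09 to -0.26. GRPEL1 was the highest at 87.0 and 81.6 TPM, followed by HYOU1 at 85.2 and 80.1 and HSPA4 at 67.8 and 78.2. GRPEL2 was the lowest at 20.8 and 28.0 TPM. The 4 cytosolic members (HSPH1, HSPA4, HSPA4L and HSPBP1) summed to 153.1 TPM in replicate 1 and 199.8 TPM in replicate 2. This was 0.269 and 0.374 times the level of the 6 BAG genes, and 0.777 and 0.889 times that of the BAG genes without BAG6.

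J-domain proteins stimulate the ATPase of HSP70 and so act at the opposite step of the cycle. All 7 were detected and 4 passed the threshold, 2 in each direction, against 58.4% of all genes counted 100 times or more. Removal of the GC trend gave 5 past it, and DNAJA1, called in both, changed direction from 0.10 to -0.18. DNAJB6 led at 233.8 and 234.8 TPM, with DNAJC7 at 145.5 and 149.6 and DNAJA1 at 129.6 and 158.7, and DNAJB4 was the lowest at 6.09 and 11.4. The list of CHIP and other HSP70 cochaperones had 5 of 5 detected and 5 of 5 past the threshold, 2 higher in replicate 2. The share was 58.4% of all genes counted 100 times or more, and 76.2% of those with at least 1503 summed counts. Each gene of this list was counted more often than that. All 5 also passed after removal of the GC trend, where ST13 changed direction from 0.06 to -0.26. HSP90AB1 was at 628.9 and 623.2 TPM, STIP1 at 476.6 and 441.0, and ST13 at 364.7 and 394.0. STUB1, which encodes CHIP, the target of BAG2, was the lowest of this list at 173.8 and 137.0 TPM, and was above BAG2 in both libraries.

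The complex in which BAG6 works, with the factors of tail-anchored protein insertion, had 7 of 7 genes detected. Of these, 5 passed the threshold, all of them higher in replicate 1, as was BAG6 and as were 22.2% of all genes, and the median ratio was -0.32. With the GC trend removed, 4 passed, not all of them the same genes. UBL4A, SGTA and GET3 kept the call, GET4 and RNF126 lost it, and CAMLG gained it. SGTA, which hands clients to BAG6, was at 198.7 and 171.0 TPM. RNF126, the ubiquitin ligase of the complex, was at 165.7 and 149.6, and UBL4A, a subunit bound to BAG6, was at 85.4 and 66.6. GET1, a membrane receptor for insertion, was the lowest at 17.0 and 22.2 TPM. Each partner was below BAG6 itself in both libraries, and the 7 genes summed to 549.2 ± 51.2 TPM (SD, n = 2).

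For the autophagy route of BAG3, 9 of 12 genes were detected, and 6 of 11 tested passed the threshold, all of them higher in replicate 1, as were 22.2% of all genes. The median ratio was -0.19. HSPB1 was at 310.7 and 236.8 TPM, DYNC1H1, the dynein motor chain, at 80.5 and 71.8, and SQSTM1, the autophagy receptor p62, at 72.1 and 63.3. HSPB8, the small heat shock protein known as the main partner of BAG3, was at 1.07 and 1.58 TPM, below BAG3 in both libraries. The lowest gene, CRYAB (HSPB5), was at 0.290 and 0.050 TPM, with 3 and 1 counts. HSPB8 was singled out after its values were seen.

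Of the BAG4 death receptor list, 4 of 4 genes were detected. The threshold was passed by 3 of them, against 58.4% of all genes counted 100 times or more. Of these 3, 1 was higher in replicate 2. Only 1 passed after removal of the GC trend, and TRADD and FAS did not. TNFRSF1A, the TNF receptor bound by BAG4, was at 87.0 and 71.7 TPM, above BAG4 in replicate 1 and below it in replicate 2. TNFRSF25 and TRADD followed at 3.74 and 4.10 TPM and at 4.08 and 2.79 TPM, and FAS was the lowest at 1.24 and 2.20. Among BAG5 partners linked to Parkinson disease, 2 of 3 were detected and 2 passed the threshold, both higher in replicate 1. The share over all genes tested was 43.1%. PARK7 was at 275.5 and 250.8 TPM and PINK1 at 39.0 and 33.1. LRRK2 was the lowest at 0.55 and 0.80.

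All 3 BAG1 partners were detected and 1, NR3C1, passed the threshold, higher in replicate 2. Of all genes counted 100 times or more, 58.4% passed. Removal of the GC trend moved NR3C1 from a log2 ratio of 0.44 to one of 0.087, and 0 of the list passed the exact binomial test. The glucocorticoid receptor gene NR3C1 was at 10.3 and 13.3 TPM, and SIAH1 was at 7.50 and 9.85. BCL2, for which BAG1 was named, was the lowest at 2.98 and 3.07 TPM, below BAG1 in both libraries. All 4 heat shock factor genes were detected and 3 passed the threshold, beside the same share of 58.4%. Of these 3, 1 was higher in replicate 2. HSF1, the main regulator of the heat response, was at 118.3 and 117.6 TPM, its binding protein HSBP1 at 119.3 and 107.9, HSF2 at 22.0 and 26.9, and HSF4, the lowest, at 6.76 and 9.89.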

How the data were processed

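RNA-Seq libraries of 2 replicates of heat-shocked HEK293T cells were sequenced on a HiSeq1500 with 50 bp reads. Genomic DNA is entered as the molecule in the labels, but their protocol describes poly(A)+ RNA. The submitters' processing notes name Trimmomatic 0.36, STAR 2.6.1c and RSEM 1.3.1 with hg19, and the methods name featureCounts with Ensembl genes. The deposited tables have the columns of RSEM. Per gene, the authors deposited an expected count (multi-mapped reads shared among genes), TPM and FPKM, with posterior values and 95% bounds. The table of the whole series was read as the authors' pooled values. The labels say that cells of each replicate were lysed separately, and p-values measure only the difference between these libraries.

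Expected counts were rounded to whole numbers. The exact binomial test was conditional on the summed count, with shares from edgeR 4.0.16 TMM effective library sizes and a pseudocount of 0.5 count for ratios. TMM factors were first computed over all listed genes, and then, after the values had been seen, over genes whose counts summed to 10 or more. Both are reported. No edgeR quasi-likelihood fit was made, since 1 group has no contrast. Trends with GC content and length were interpolated between the medians of 50 classes. Positions and transcripts came from a GENCODE annotation of GRCh37, which gave GC content for 96.1% of the identifiers. Symbols were matched directly, and HSPB5 through a RefSeq synonym. Members, partner lists and tests were chosen with earlier results of these data known. All members were named, and of each list the 3 genes of highest mean TPM and the lowest. Some others were named for their calls or sums, or for a change after removal of the GC trend. A few genes of the partner lists are not reported here. The scripts were checked on simulated data. Alternatives were scaling (library totals, DESeq2 1.42.0 size factors), count minimums, edgeR exact tests, trends, other units and leaving out each replicate. The tests ran in SciPy 1.17.1 and R 4.3.3.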

Additional observations from a re-analysis of the deposited data

How the results depend on the processing

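With 1 group, there was nothing to pair between conditions. No paired analysis was possible because replicate numbers are shared by no second group. The count of members past the threshold, 6, fell to 0 with the edgeR exact test at the estimated dispersion and to 0 at an assumed biological coefficient of variation of 0.1, where 0.781% and 7.24% of all genes passed and 0 and 1 members had an unadjusted p under 0.05. It was between 4 and 6 under the other alternatives. Removal of the GC trend reversed BAG2 to -0.33, BAG3 to 0.028 and BAG5 to -0.079 on the log2 scale, and removal of GC and length trends gave -0.341, 0.014 and -0.082. GC content was also taken over the first bases of the longest transcript, for the members only. BAG2 then kept its direction at 0.425, while BAG3 was reversed to 0.02 and BAG5 to -0.003, neither past the threshold. The call of BAG3 was lost with library totals, DESeq2 size factors (exact binomial test, adjusted p = 0.0549), TMM factors over all listed genes, a summed count of at least 1 (exact binomial test, adjusted p = 0.0532), both edgeR tests and all removals of the GC trend. Of 66 recomputed log2 ratios, 42 kept direction and side of the threshold, 16 lost the call with the same direction and 8 reversed, 6 of these also losing the call, so that 22 in all were not past the threshold. GC content over first bases was added after seeing the data. The TMM factors over all listed genes were the first setting, under which 5 members passed. The TMM factors of the main test replaced them after the values had been seen. Without replicate 1 or without replicate 2, the number of members detected was 6. The share of the family sum moved by more than the SD with CPM, to 4.11% for BAG1 (8.68% by TPM) and 9.64% for BAG3 (6.77%), and by less with posterior mean TPM, FPKM and the pooled table. With 2 libraries, leaving out 1 cannot move a mean by more than the SD. The other counts (pairs separated 3, bounds apart 5, partners past the threshold 37 to 41, members with a length difference 2) stayed within 1.5 times. By CPM, however, the order and the separated pairs were others. Mean CPM was 493.8 for BAG6, 71.9 for BAG3, 66.7 for BAG4, 50.0 for BAG5, 33.7 for BAG2 and 30.8 for BAG1. The pairs separated were BAG6 and BAG3, BAG4 and BAG5, and BAG5 and BAG2. With 2 libraries, the spread of a level is known poorly. The cause of the reversals was not tested.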

Other observations

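The authors' pooled table of both libraries gave the BAG genes in the same order as the mean of the libraries. BAG6 was at 337.97 TPM in it, BAG4 at 66.3, BAG1 at 47.7, BAG3 at 37.3, BAG5 at 34.6 and BAG2 at 26.1. The pooled counts of the members equalled the sum of the libraries to within 1.75 reads, the difference for BAG2.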
